A study of Felis catus with 23 samples.

Results

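The microRNA (miRNA) described here is miR-205-5p, measured in the blood serum of cats. Its members are the probes that carry the human name hsa-miR-205-5p: 2 of the 4944 miRNA probes of the array, and 1 of its 2026 miRNA names. Serum came from 11 cats that had HCM (hypertrophic cardiomyopathy, in which the wall of the heart thickens) and from 12 healthy cats, with 1 array per cat. The labels give a disease status for each cat but no strain, age, treatment or severity. The array was an Agilent 1-colour design for human miRNAs, so every name below is that of a human or viral probe, and no probe was matched to the cat genome. Neither probe sequences nor genome positions were used here.

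miR-205 is a miRNA of epithelia, abundant in skin, in the oesophagus and in the basal layer of several glands. Together with the miR-200 family it represses the transcription factors ZEB1 and ZEB2, which drive the switch of epithelial cells to a mesenchymal state, and so helps to keep epithelial cells epithelial. Its precursor gives a 5p arm, which is the abundant one, and a 3p arm. It is not one of the miRNAs known for heart muscle, and serum holds it as cell-free RNA. In serum, a lower number of cells that release a miRNA and a lower release from each cell cannot be told apart.

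The miRNA was chosen on these data, with its difference between HCM and healthy sera known, so that difference is given below as a description, with no test. What that choice did not use is tested: the slides on which the arrays sat, and the miRNAs that varied with it once the group means were removed. The arrays sat on 3 slides, each holding both groups. On slide 1 there were 3 HCM arrays beside 4 healthy ones, and on slides 2 and 3 there were 4 of each. The HCM arrays always lay in row 1 of a slide and the healthy ones in row 2, so row and disease cannot be told apart. An array detected between 322 and 608 names, with means of 496 ± 67.0 on HCM arrays (SD, n = 11) and 449 ± 89.5 on healthy arrays (SD, n = 12).

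Both probes of miR-205-5p were read on 15 spots each, so 30 spots on an array carried this name. Detection here means that 50% or more of the usable spots of a probe stood well above background by the call of the scanner software. Probe 1, which had the higher mean signal and represents the miRNA below, was detected on 23 of 23 arrays, and probe 2 on 22. The exception for probe 2 was HCM replicate 7, where 0 of its 14 usable spots were well above background, and where 8 of the 15 spots of probe 1 were. No spot of either probe was saturated (0 on all arrays).

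The processed spot brightness of probe 1, an intensity on a linear scale before any scaling between arrays, differed widely between cats. It ran from 6.58 on HCM replicate 7 to 60.4 on HCM replicate 11, with a median of 21.2 over the HCM arrays. On the healthy arrays it ran from 10.3 on replicate 22 to 158 on replicate 15, with a median of 24.7. The arrays differed in brightness as a whole, however. The 75th percentile intensity over the 508 probes detected on every array lay between 90.5 and 699, and its log2 was 8.22 ± 0.49 on HCM arrays (SD, n = 11) and 7.80 ± 0.91 on healthy arrays (SD, n = 12). Values from here on are therefore log2 intensities after each array was scaled to that percentile, unless another scale is named, with a floor at 2.45.

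On this scale miR-205-5p was lower on average in HCM sera, and the groups overlapped. The HCM arrays had a lowest value of 2.65, a median of 4.69 and a highest value of 5.87, against 3.75, 5.29 and 6.02 on the healthy arrays. The means were 4.28 ± 0.99 in HCM sera (SD, n = 11) and 5.17 ± 0.65 in healthy sera (SD, n = 12). HCM minus healthy was -0.90, a ratio of 0.536 of HCM over healthy. Its SE of 0.33 is that of limma, which draws the variance of each name towards that of all names, and no test is made from it. Of the 11 HCM arrays, 10 lay below the healthy median, and 3 of the 12 healthy arrays lay below the HCM median. HCM replicates 5, 6, 7, 8 and 12 lay below the lowest healthy array, the other 6 HCM arrays lay within the healthy range, and 1 healthy array, replicate 17, lay above the highest HCM array. These counts depend on the scaling: by unscaled intensity 6 of the 11 HCM arrays lay below the healthy median and 2 below the lowest healthy array. The log2 difference was -0.46 (limma SE 0.43) without scaling. It was -0.21 (limma SE 0.11) after another background correction (normexp with an offset of 50) and quantile normalization. That offset lies above the median unscaled intensities of 21.2 (HCM) and 24.7 (healthy) and narrows log2 differences, so -0.21 is not on a like scale. Over all 543 names tested, limma with Benjamini-Hochberg adjustment called 0 between HCM and healthy (0% of names), 36 had an unadjusted p under 0.05 (6.63%), 16 of them lower in HCM (2.95%), and 66.5% of names had a lower mean in HCM sera. The median difference of all names was -0.10.

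**Figure D1:**
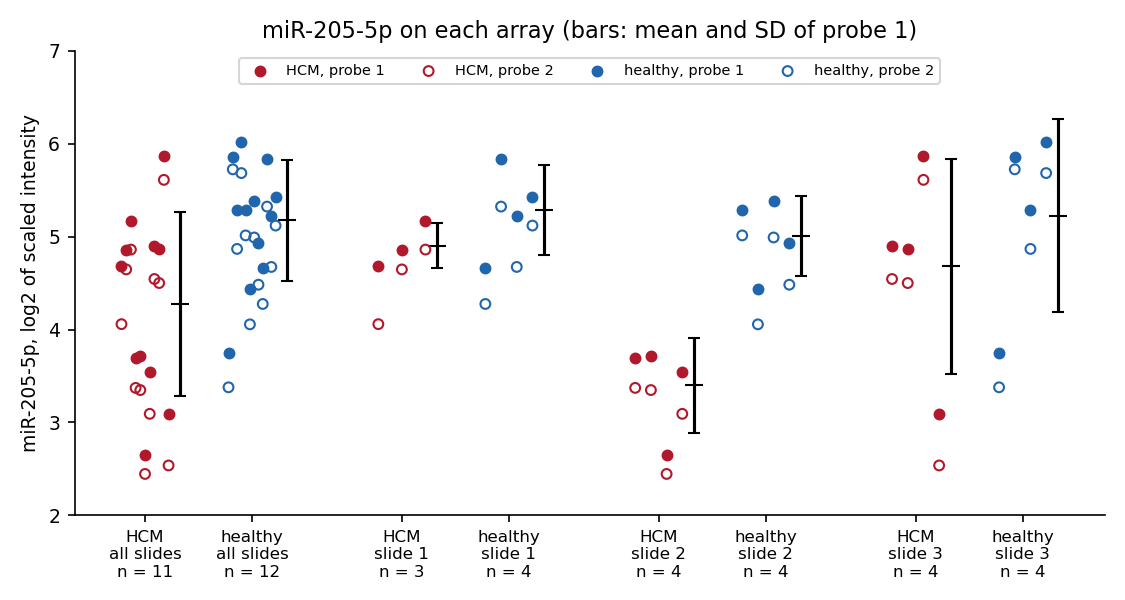
Level of miR-205-5p on each array, as log2 of scaled intensity, for all slides together and for each slide, with HCM in red left of healthy in blue. Filled points are probe 1, open points probe 2, and the black bars give the mean and SD of probe 1. For probe 1 on slide 2 the 4 HCM arrays lie at or below 3.71 and the 4 healthy arrays at or above 4.43, and on slides 1 and 3 the groups overlap. How many other names separate on slide 2 was not counted.

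By slide, the values were the following. On slide 1 the HCM sera had 4.69, 4.85 and 5.17 (replicates 1, 2 and 3), against 4.67, 5.83, 5.22 and 5.42 in the healthy sera (replicates 22, 23, 25 and 26). The HCM mean was 4.90 ± 0.24 (SD, n = 3) and the healthy mean 5.29 ± 0.49 (SD, n = 4), a difference of -0.39, and every HCM value lay within the healthy range.

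Slide 2 held 4 of the 5 HCM sera that lay below all healthy ones. Its HCM sera had 3.69, 3.71, 2.65 and 3.54 (replicates 5, 6, 7 and 8), against 5.29, 4.43, 5.38 and 4.94 in the healthy sera (replicates 18 to 21). There the groups did not overlap. How many of the 543 names tested separate in this way on slide 2 was not counted, and miR-205-5p was chosen with its group difference known. The means were 3.40 ± 0.51 in HCM sera and 5.01 ± 0.43 in healthy sera (SD, n = 4 each), a difference of -1.61.

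On slide 3 both groups spread widely. The HCM sera had 4.90, 4.87, 5.87 and 3.09 (replicates 9 to 12), against 3.75, 5.85, 5.29 and 6.02 in the healthy sera (replicates 14 to 17). Each group held 1 serum far below its other 3, HCM replicate 12 and healthy replicate 14. The means were 4.68 ± 1.16 in HCM sera and 5.23 ± 1.03 in healthy sera (SD, n = 4 each), a difference of -0.54.

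HCM minus healthy was thus negative on each of the 3 slides and largest in size on slide 2. The miRNA was chosen with its difference over these same arrays known, so the shared sign is no replication. The share of all names negative on all 3 slides was not counted. Without slide 2, an alternative chosen after seeing the data, HCM minus healthy was -0.48. Without slide 1 or slide 3 it was -1.08 and -1.11. Whether the difference itself differed between slides was tested with a group by slide term in limma over 543 names: F was 1.75, the unadjusted p 0.198 and the adjusted p 0.998. That test called 0 names (0%), and 13 had an unadjusted p under 0.05 (2.39%). The level of miR-205-5p between slides, with group in the model, gave F = 3.22, an unadjusted p of 0.0585 and an adjusted p of 0.411 by limma. For that term 0 names were called (0%) and 68 had an unadjusted p under 0.05 (12.5%). After the group means were removed, miR-205-5p averaged 0.33 on slide 1, -0.52 on slide 2 and 0.23 on slide 3.

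Probe 2 gave the same picture on its own scale. Its lowest, median and highest values were 2.45 (the floor, on HCM replicate 7), 4.06 and 5.61 on HCM arrays, against 3.38, 4.93 and 5.72 on healthy arrays. The means were 3.91 ± 1.02 in HCM sera (SD, n = 11) and 4.80 ± 0.68 in healthy sera (SD, n = 12), a difference of -0.89. By slide, HCM minus healthy was -0.33, -1.57 and -0.62. Over the 23 arrays probe 1 exceeded probe 2 by between 0.13 and 0.63, with a median of 0.37, and the correlation of the probes after group means were removed was 0.990. They were read on the same arrays from the same labelled RNA, so they are not separate samples.

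In the log2 values deposited by the authors, whose normalization is not stated, probe 1 averaged 4.46 ± 0.95 in HCM sera (SD, n = 11) and 5.17 ± 0.66 in healthy sera (SD, n = 12). The HCM arrays had a lowest value of 2.96, a median of 4.81 and a highest value of 6.04, against 3.91, 5.08 and 6.15 on the healthy arrays. HCM minus healthy was -0.71 there, and -0.22, -1.35 and -0.41 on slides 1, 2 and 3. In these values 8 of 11 HCM arrays lay below the healthy median and 3 below the lowest healthy array. Probe 2 averaged 4.12 ± 0.98 in HCM sera (SD, n = 11) and 4.83 ± 0.67 in healthy sera (SD, n = 12) there, a difference of -0.71. By slide it was -0.17, -1.30 and -0.53. For probe 2, 7 of 11 HCM arrays lay below the healthy median and 5 below the lowest healthy array.

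Cats differed in miR-205-5p by far more than the standard error that the spots gave to an array's value. That standard error had a median of 0.0407 on the log2 scale and reached 0.107 on HCM replicate 8. The SD between cats within groups was 0.83, which is 20.4 times that median. This ratio sets an SD against a standard error. Single spots of probe 1 spread more widely, with a median CV (SD over mean of intensity) of 10.9% and a highest of 28.7%. The highest array, healthy replicate 17, stood 3.37 above the lowest, HCM replicate 7, a 10.3-fold range. The 251 human names detected on every array had a median within-group SD of 0.58, and 32 of the 250 names other than miR-205-5p had a larger SD than it, so 87.2% had a smaller one. Each cat gave 1 array, so the SD between cats also holds the variation of RNA extraction, labelling and hybridisation. It holds the differences between slides too.

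Whether the level of miR-205-5p moved with the quality of an array or serum was tested with 5 measures over the 23 arrays, after removing group means, by 2-sided permutation within groups and adjusted over the 5. With the log2 75th percentile intensity, r was -0.05 (p = 0.820, adjusted p = 0.889) and rho 0.01 (p = 0.961). It was -0.02 without HCM replicates 7 and 12, the arrays farthest from the median of miR-205-5p, and 0.47, -0.18 and -0.18 within slides 1, 2 and 3. With the number of names detected, r was -0.07 (p = 0.758, adjusted p = 0.889) and rho -0.02 (p = 0.946), with r = -0.13 without those arrays and 0.46, -0.29 and -0.26 within the slides. Without scaling, r with the 75th percentile intensity was 0.65 (permutation p adjusted to 0.00710). With the number of names detected it was 0.60 (permutation p adjusted to 0.0107). The scaled level was divided by that same percentile, so its r near 0 with brightness is in part set by the scaling. It is no independent test of array quality.

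**Figure D2:**
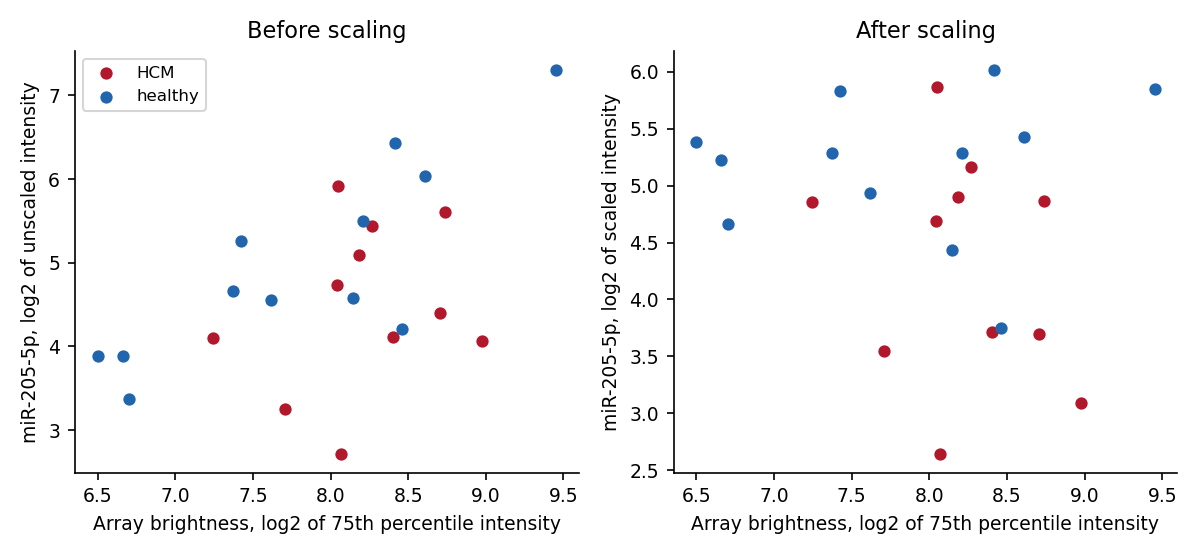
miR-205-5p against the brightness of the array, the log2 of its 75th percentile intensity, before scaling (left) and after scaling (right), with 1 point per array, HCM in red and healthy in blue. Before scaling the level climbs with brightness (r = 0.65 after removing group means). After scaling it does not (r = -0.05), and the lowest points of the right panel are HCM arrays. The scaling divides each array by this same percentile, so the right panel is no independent test of brightness.

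The haemolysis measure, log2 of miR-451a (a red cell miRNA) minus miR-23a-3p (a miRNA little affected by red cells), was -1.45 ± 1.32 in HCM sera (SD, n = 11) and -0.58 ± 1.75 in healthy sera (SD, n = 12). Its r with miR-205-5p was 0.14 (p = 0.497, adjusted p = 0.889) and its rho 0.18 (p = 0.423), with -0.36, 0.23 and 0.13 within slides 1, 2 and 3. Without HCM replicates 7 and 12, r was 0.28. With the labelling spike, an RNA added to each sample to follow labelling, r was -0.03 (p = 0.889, adjusted p = 0.889) and rho -0.04 (p = 0.850), with r = 0.16 without those arrays and -0.46, 0.61 and -0.07 within the slides. For these 4 measures the adjusted p of rho was 0.961.

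The local background around the spots was the measure closest to miR-205-5p. It averaged 21.4 ± 1.94 on HCM arrays (SD, n = 11) and 20.6 ± 1.78 on healthy arrays (SD, n = 12), in units of intensity. Its r with miR-205-5p was 0.53 (p = 0.0121, adjusted p = 0.0607) and its rho 0.55 (p = 0.0107, adjusted p = 0.0533), and neither passed the threshold of 0.05. Without HCM replicates 7 and 12, r was 0.52. The background differed between slides, from 20.3 to 23.8 on slide 1 and from 19.9 to 22.8 on slide 3, and at most 19.6 on slide 2. Within the slides r was -0.01 (n = 7 arrays), -0.15 (n = 8) and 0.61 (n = 8), and with slide as a block it was 0.30 (permutation p = 0.168). The part of the background in the level of miR-205-5p was not tested.

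The label of miR-205-5p as epithelial was set against 20 other names on the array that are known for epithelia. Detection was low on the whole array as well: 543 of 2026 names were detected on at least 6 of 23 arrays, against 2 of these 20. The share of all names detected on 0 arrays was not counted. Of the 20 epithelial names, 16 were detected on 0 of 23 arrays. They were the members of the miR-200 family (miR-200a-3p, miR-200b-3p, miR-200c-3p, miR-141-3p and miR-429), miR-203a, the keratinocyte miRNA that limits proliferation as skin cells differentiate, the sensory and epithelial cluster of miR-183-5p, miR-182-5p and miR-96-5p, and miR-31-5p, miR-34c-5p, miR-194-5p, miR-205-3p, miR-215, miR-224-5p and miR-449a. The other arm of the same precursor, miR-205-3p, had intensities of -1.04, -0.34 and 0.45 on HCM arrays (lowest, median and highest) and -0.52, -0.11 and 1.07 on healthy arrays, on a scale where values around 0 are background. miR-34b-5p, known from ciliated epithelium, was detected on 2 arrays, HCM replicate 10 and healthy replicate 16. miR-192-5p, known from gut and kidney epithelium, was detected on HCM replicate 10 alone.

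The epithelial names tested besides miR-205-5p were thus 2. miR-375, a miRNA of pancreatic islets and of glandular and gut epithelium, was 4.11 ± 0.97 in HCM sera (SD, n = 11) and 4.38 ± 1.40 in healthy sera (SD, n = 12), a difference of -0.27 (limma adjusted p = 0.880). Its r with miR-205-5p after removing group means was 0.21 (permutation p = 0.300, adjusted p = 0.797) and its rho 0.15. miR-184, a miRNA of the corneal epithelium and lens, was 3.45 ± 0.41 in HCM sera (SD, n = 11) and 3.58 ± 0.52 in healthy sera (SD, n = 12), a difference of -0.13 (limma adjusted p = 0.855). Its r was 0.11 (permutation p = 0.595, adjusted p = 0.940) and its rho 0.16. Since the defining epithelial names were below detection, these values give no cell type to the serum miR-205-5p, and it is called by its name alone.

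Which miRNAs varied most closely with miR-205-5p from cat to cat was asked over the 542 other names tested, of which 503 were human, with group means removed. The answer holds no call. By permutation with Benjamini-Hochberg adjustment, 0 names (0%) passed an adjusted p of 0.05, by Pearson's r or by Spearman's rho. The lowest adjusted p was 0.255 for r and 0.314 for rho. An unadjusted p under 0.05 was reached by 48 names (8.86%), 24 with r above 0 and 24 with r below 0, and the median r was 0.00. Without scaling between arrays, 209 names (38.6%) passed and the median r was 0.45. The names below are therefore ordered by r as a description.

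The 10 human names with the highest r lay between 0.49 and 0.53. In order they were miR-3178, miR-3663-3p, miR-138-5p, miR-3610, miR-135a-3p, miR-3195, miR-4745-5p, miR-4672, miR-874 and miR-139-3p. Their rho lay between 0.44 and 0.59. The highest r of all, 0.54, belonged to a viral name on the array, hsv2-miR-H6-5p. None of the 10 is among the names known for epithelia listed above. miR-138-5p is known for its role at the synapses of neurons. miR-135a-3p and miR-139-3p are the 3p arms of precursors whose 5p arms are better studied, and miR-3178 and miR-3195 are rich in G and C in their human form. Of the 10, 8 were detected on every array.

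The r of these 10 names was above 0 in both groups, between 0.32 and 0.64 over the HCM arrays and between 0.39 and 0.78 over the healthy arrays. It was not so on every slide. On slide 1 only 5 of the 10 had an r above 0, with a range of -0.57 to 0.31, while on slide 2 all 10 lay between 0.03 and 0.54 and on slide 3 all 10 between 0.51 and 0.80. With slide as a block, r lay between 0.27 and 0.58. Without HCM replicates 7 and 12 it lay between 0.45 and 0.69. The 10 names were picked by their r over these same arrays. Their r in each group, or with arrays left out, is therefore no separate evidence.

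miR-3663-3p shows the pattern among the names bright enough to be read on every array. It had 9.94, 10.90 and 11.86 on HCM arrays (lowest, median and highest), against 9.47, 11.10 and 12.05 on healthy arrays, so the groups overlapped almost wholly. Its r with miR-205-5p was 0.52 (permutation p = 0.00444, adjusted p = 0.369) and its rho 0.52 (p = 0.00883, adjusted p = 0.585). Within slides 1, 2 and 3 its r was -0.07, 0.34 and 0.77. miR-3178, first in the order, rests on few readings. Detection came from 4 HCM arrays and 3 healthy ones, and 9 HCM arrays and 7 healthy ones stood at the floor, and values at the floor have no order among them. Its r was 0.53 (permutation p = 0.00544, adjusted p = 0.369).

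**Figure D3:**
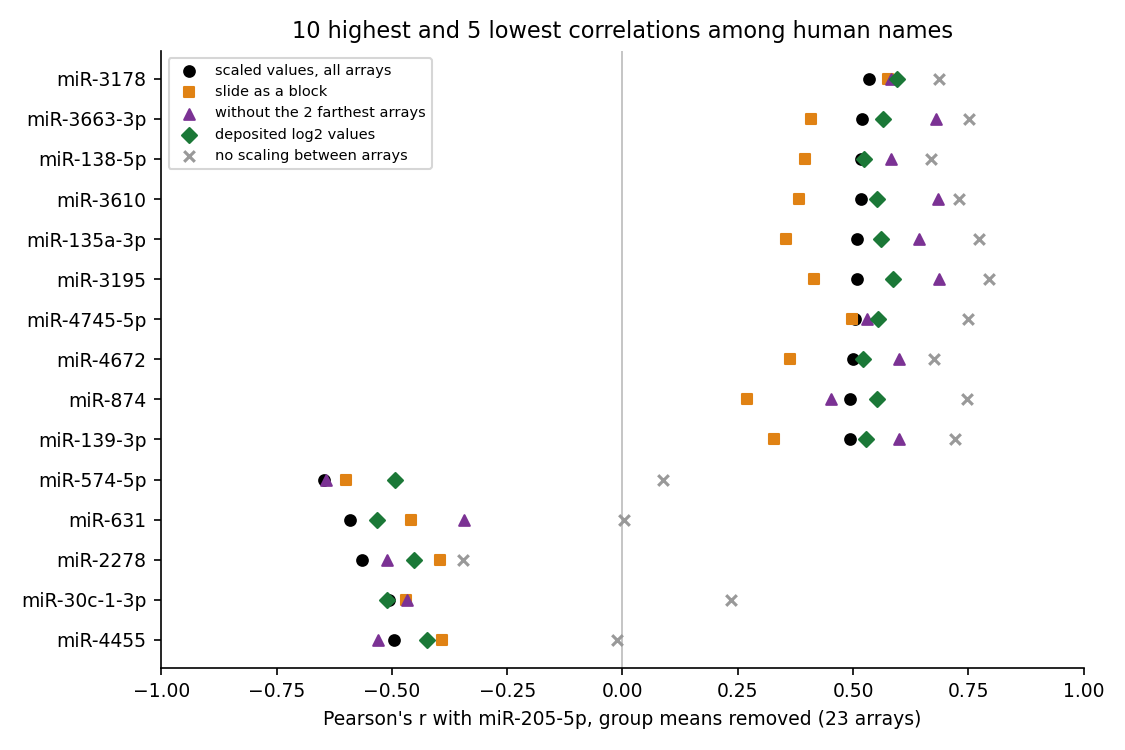
Pearson's r with miR-205-5p over 23 arrays, group means removed, for the 10 human names with the highest and the 5 with the lowest r, under the scaled values and 4 other settings given by the symbols. With slide as a block the 10 highest lie between 0.27 and 0.58; without scaling between arrays all 10 lie at or above 0.67 and 3 of the 5 lowest lie above 0.

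The 5 human names with the lowest r were miR-574-5p (-0.65), miR-631 (-0.59), miR-2278 (-0.57), miR-30c-1-3p (-0.51) and miR-4455 (-0.49). miR-574-5p, a miRNA rich in G and U in its human form, had 5.89, 7.63 and 8.57 on HCM arrays (lowest, median and highest), against 6.55, 7.34 and 9.89 on healthy arrays. Its highest array, healthy replicate 19, had the second lowest miR-205-5p of the healthy arrays. For this r of miR-574-5p the permutation p was 0.000470 (adjusted p = 0.255), and its rho was -0.64 (p = 0.000880, adjusted p = 0.314). It was -0.66 over the HCM arrays and -0.74 over the healthy arrays, and -0.01, -0.82 and -0.73 within slides 1, 2 and 3. With slide as a block it was -0.60, and without HCM replicates 7 and 12 it was -0.64. In the deposited values it was -0.49, with scaling over all probes -0.43, and without scaling between arrays 0.09. With each array left out in turn, only leaving out healthy replicate 23 made miR-574-5p pass the threshold (r = -0.68, permutation p adjusted to 0.0434). No other name passed then. miR-574-5p was picked by its r over these arrays, so its r within groups is no separate evidence.

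miR-631 depended on the lowest arrays. In all, 6 HCM arrays and 7 healthy ones stood at the floor, its r was -0.89 over the HCM arrays and -0.03 over the healthy arrays, and without HCM replicates 7 and 12 it was -0.34. That difference between the groups was not tested. For miR-2278, 8 HCM arrays and 11 healthy ones stood at the floor. miR-30c-1-3p, the passenger arm of a miR-30c precursor, stood at the floor on 0 arrays. miR-4455 ranged from 2.48 to 6.63 on HCM arrays and from 3.46 to 7.10 on healthy arrays.

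**Figure D4:**
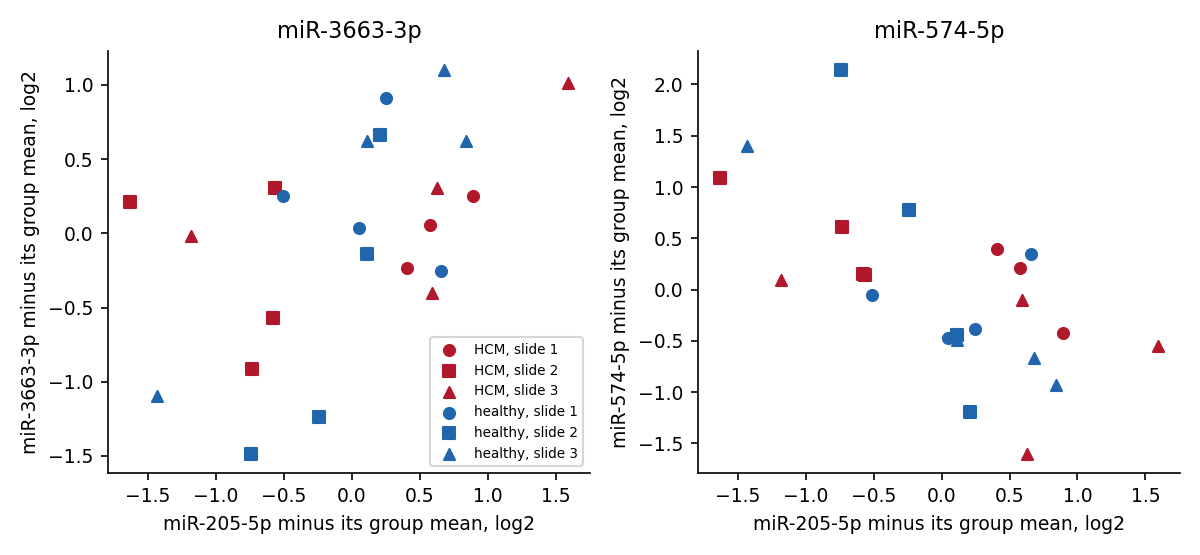
Level of miR-3663-3p (left) and miR-574-5p (right) against miR-205-5p, each minus its group mean on the log2 scale, with 1 point per array, HCM in red and healthy in blue, and circles, squares and triangles for slides 1, 2 and 3. miR-3663-3p climbs with miR-205-5p (r = 0.52) and miR-574-5p falls with it (r = -0.65); the circles of slide 1 show neither slope (r = -0.07 and -0.01).

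The same 15 names were read between HCM and healthy sera. Of the 15, limma called 0 between HCM and healthy, with a lowest unadjusted p of 0.193 and a lowest adjusted p of 0.802. Over all 543 names tested, 66.5% had a lower mean in HCM sera. Of the 10 with the highest r, 6 had a lower mean in HCM sera, near that share. Their differences ran from -0.29 to 0.36, with a median of -0.10, the same as over all names. Of the 5 with the lowest r, 3 had a higher mean in HCM sera, with differences from -0.26 to 0.17 and a median of 0.06.

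Lists of miRNAs known for other sources of serum RNA were read against miR-205-5p in the same way, and 0 members of any list passed the threshold. Of 6 tested red cell names out of 9 on the array, 5 had an r below 0, and the median r was -0.22, beside 0.00 over all names. Over all names, 272 of 542 had an r above 0. Without scaling between arrays those 5 lay between 0.08 (miR-106b-5p) and 0.31 (miR-144-3p), beside a median of 0.45 over all names. With scaling, the members with the largest r in size were miR-106b-5p (-0.29), miR-25-3p (-0.25) and miR-486-5p (-0.25). The first 2 come from 1 precursor transcript, and miR-486-5p is an abundant miRNA of red cells. The 1 member with an r above 0, named after its value was seen, was miR-451a (0.11), the red cell miRNA of the haemolysis measure. Of 7 tested platelet and leukocyte names out of 12, the median r was -0.03. miR-197-3p was at -0.40, miR-155-5p, a miRNA of activated lymphocytes and macrophages, at 0.24 and miR-181b-5p, a lymphoid miRNA, at -0.06. Of these, miR-155-5p stood at the floor on 9 HCM arrays and 9 healthy ones, and miR-197-3p on 0 and 2. Of 8 tested vessel wall and fibroblast names out of 11, the median r was 0.03. miR-29a-3p, which represses collagen genes, was at 0.24, its relative miR-29b-3p at 0.04 and miR-145-5p, a smooth muscle miRNA, at 0.12. Of these, miR-29b-3p stood at the floor on 6 HCM arrays and 3 healthy ones. The muscle list had 1 tested name of 7, miR-133b, at 0.09, and the liver list 1 of 2, miR-122-5p, at 0.13. On 5 HCM arrays and 8 healthy ones miR-133b stood at the floor, and miR-122-5p did so on 7 and 5.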

How the data were processed

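Serum miRNAs of 11 HCM and 12 healthy cats were read on 1-colour Agilent arrays. Per the file headers, the spot values are linear intensity from Agilent Feature Extraction 10.7.3.1, background subtracted but not scaled between arrays, and the spot flags of 0 or 1 are other information than brightness. For 1750 miRNA probes the authors also deposited log2 values. They correlated with log2 processed intensity at 0.987 to 0.9998 per array, which settles scale and direction, but their normalization stays unknown.

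Control spots and outlier spots (1.81% to 3.95% per array) were left out, and the spots of a probe averaged. Arrays were scaled to the 75th percentile over 508 probes detected on all arrays, since 18.6% of probe values were detected, floored at the 5th percentile of detected signals and log2 transformed. The probe with the highest mean stood for a name. Names detected on at least 6 of 23 arrays were tested (543, of which 504 human). Slides and groups were tested with limma 3.58.1 in R 4.3.3, 2-sided, and correlations after removing group means with 100000 permutations within groups, both Benjamini-Hochberg adjusted with a threshold of 0.05. The scripts ran in Python 3.11.15 (numpy 2.4.6, pandas 2.3.3) and were tested on simulated data. The design text speaks of separate cats, so replicates are cats. The number of arrays limits the precision.

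Named were miR-205-5p, the 10 human names with the highest and the 5 with the lowest r, the tested epithelial names, up to 3 tested names with the largest r in size of each other list, and miR-205-3p. The miRNA, the lists and the named miRNAs were chosen with earlier results of these data known. Alternatives covered scaling, background, floor, spot and probe summary, outlier spots, detection, slide as a block and left-out arrays. The normexp alternative used the median spot signal in place of the planned mean signal.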

Additional observations from a re-analysis of the deposited data

How the results depend on the processing

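The number of arrays and the low signal of miR-205-5p limit these results: its probe 2 was not detected on 1 array, and on each slide a group had 3 or 4 arrays. Each group lies in its own row of every slide. The difference of miR-205-5p, -0.90 for HCM minus healthy, lay between -1.11 and -0.21 in the alternatives, and between -1.06 and -0.74 with each array left out in turn. The miRNA was chosen with this difference known, so its sign there is no evidence of stability, and the alternative limited to arrays with a detected probe kept all 23 arrays and so the same value. The planned values nearest 0 were -0.21 (limma SE 0.11) after normexp with an offset of 50 and quantile normalization and -0.46 (limma SE 0.43) without scaling. The offset narrows log2 differences of a signal this low, so -0.21 and -0.90 are not on a like scale. Chosen after seeing the data were probe 2 alone (-0.89) and leaving out slide 1 (-1.08), slide 2 (-0.48) or slide 3 (-1.11). No alternative of 12 brought the slide test (adjusted p 0.129 to 0.458) or the group by slide test (adjusted p 0.998 to 1) past the threshold. The count of co-varying names, 0, moved in 1 of 17 alternatives: without scaling it was 209 of 542 (38.6%), with a median r of 0.45, and r of miR-205-5p turned to 0.65 with array brightness and 0.60 with detected names. With each array left out it was 0 to 1, the 1 being miR-574-5p without healthy replicate 23. The r with local background passed the threshold with scaling over all probes (0.56, adjusted p = 0.0439) and without the 4 arrays that detected the fewest names (0.64, adjusted p = 0.0309). The cause was not tested. Of the 10 highest and 5 lowest names, 5 and 1 kept their place among the 10 and 5 with slide as a block, 4 and 2 without HCM replicates 7 and 12, and 8 and 3 in the deposited values. Between HCM and healthy, limma called 0 of 543 names, but 4 in the deposited values (miR-381-3p, miR-4751, miR-513a-3p and miR-5700, adjusted p 0.0114 to 0.0321), 1 with a floor at the 1st percentile (miR-381-3p) and 1 with the scanner's total gene signal (miR-5700). Of 14 alternatives these 3 made a call, for a cause not tested. No paired analysis was possible because the groups share no replicate numbers.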

Other observations

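The serum of HCM replicate 10 was highest of all for 2 tissue miRNAs, miR-133b and miR-122-5p, but not for miR-205-5p; the names here were chosen after their values were seen. miR-133b, a muscle miRNA, was 9.62 there against 5.25 on the next highest array, and the median array was at the floor of 2.45. miR-122-5p, a liver miRNA, was 7.93 there against 5.72 on the next highest array. The other liver name, miR-885-5p, was second highest there, at 3.41, below 3.54 on another array. Before scaling it was highest there, at an intensity of 17.8 against 15.6 on the next array. After scaling, 19 of the 23 arrays stood at the floor for miR-885-5p. The muscle name miR-1 was detected on 0 of 23 arrays. So was miR-208a. Of the other muscle names, miR-133a and miR-499a-5p were each detected on 1 HCM array, miR-208b on 2 HCM arrays, and miR-206 on 2 HCM arrays and 1 healthy array. Their values were not read on HCM replicate 10. miR-192-5p was detected on that array alone, at an intensity of 7.96 before scaling against 1.93 on the next array, but after scaling it was at the floor on all 23 arrays, this one included. miR-375 was second highest there, at 6.15, below 6.59 on the highest array. Before scaling miR-375 was highest there, at an intensity of 119 against 46.4 on the next array. miR-205-5p was 4.87 in this serum, 13th of the 23 arrays from the highest. Without this array, r with miR-205-5p after removing group means was -0.07 for miR-133b, 0.02 for miR-122-5p and 0.17 for miR-375.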
